A study of Homo sapiens with 6 samples.

Results

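Transfer RNA charging was examined through 38 genes of the 60612 in the deposited table. They are 19 genes of cytosolic aminoacyl-tRNA synthetases, 16 genes of mitochondrial ones, and AIMP1, AIMP2 and EEF1E1, the scaffold genes of the multisynthetase complex. Members were matched by gene symbol, the set having been proposed with earlier results of these data known, and all 38 passed the filter on low counts. The cells were PANC-1, a line long in culture that was derived from a human carcinoma of the pancreatic duct, here grown in medium with fetal bovine serum. The treated group had 50 µM D(+)-raffinose pentahydrate, a plant trisaccharide, for 24 h (3 libraries), and the untreated group had no compound named (3 libraries). No vehicle or harvest time is given for the untreated cells. The labels do not tell whether replicates were grown as separate cultures; every p-value here therefore rests on variation among 6 libraries that could be technical.

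Aminoacyl-tRNA synthetases join each amino acid to its tRNA, the step that gives the genetic code its meaning. Class I and class II enzymes have unrelated catalytic folds. In mammalian cells the cytosolic enzymes for several amino acids sit in one multisynthetase complex, held together by the proteins of AIMP1, AIMP2 and EEF1E1. Most mitochondrial enzymes come from separate nuclear genes, while GARS1 and KARS1 each encode both forms. When amino acids run short, the kinase GCN2 (EIF2AK4) phosphorylates eIF2 and the transcription factor ATF4 is translated, and many cytosolic synthetase genes are known ATF4 targets in mammalian cells.

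The total count per library was 62756117 to 63553897 in the raffinose group and 59723420 to 66063664 in the untreated group. These totals overstate read pairs, because 1 pair seems to add 4 to the deposited value: in each library more genes had a count of 4 (1255 to 1382) than of 3 (440 to 497) or 5 (229 to 286). The keratins KRT8 and KRT18 averaged 334 and 455 FPKM (reads scaled to gene length and library size) over the 6 libraries, and VIM 772 FPKM. By the mean of the 6 libraries, 3 of 6 epithelial markers reached 1 FPKM, and that list summed to 655 to 687 FPKM in raffinose libraries and 851 to 988 FPKM in untreated libraries. A further one, KRT7, had 0.742, 0.726 and 0.900 FPKM in the 3 raffinose libraries, against 1.19, 1.06 and 1.22 FPKM in the 3 untreated libraries. Of 3 mesenchymal markers VIM and CDH2 reached a mean of 1 FPKM, with sums of 712 to 749 FPKM in raffinose libraries and 744 to 868 FPKM in untreated libraries. Of 6 leukocyte markers 1, CD68, did so. That list summed to 6.99 to 9.48 FPKM in raffinose libraries and 12.4 to 15.9 FPKM in untreated libraries, with PTPRC, CD3E and CD14 below a mean of 0.1 FPKM. The part of these differences in the results on synthetases was not tested. Endothelial, acinar and endocrine markers, 4 of each, all had means below 0.1 FPKM, and 1 of 6 fibroblast markers and 0 of 3 erythroid markers reached a mean of 1 FPKM.

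Messenger RNA levels of most cytosolic synthetases were lower in raffinose-treated libraries, by small amounts, and whether single genes passed depended on the test: edgeR, the main one, called none and DESeq2 called 6. Of the 19 genes 18 had a negative log2 fold change, and the median was -0.21 (raffinose over untreated), beside 0.01 over all 18863 tested genes. The lowest values were -0.36 for VARS1 and -0.34 for AARS1 and FARSA each, and the single positive value was 0.01 for RARS1. By edgeR's quasi-likelihood test with Benjamini-Hochberg adjustment over all tested genes, 0 of 38 members passed at 0.05, while 0.0848% of tested genes were called lower and 0.0371% higher. That balance rests on single libraries: 16 genes were lower and 7 higher with all libraries, but 8 lower and 15 higher without untreated replicate 1, and 8 lower and 12 higher without untreated replicate 2. At an unadjusted p under 0.05 by edgeR, 12 cytosolic, 1 mitochondrial and 1 scaffold gene were lower and 0 were higher, beside 7.08% of tested genes lower and 6.21% higher. DESeq2 called 6 of 19 cytosolic genes, 0 of 16 mitochondrial genes and 1 of 3 scaffold genes lower, and 0 higher, beside 2.83% of the genes it gave an adjusted p lower and 1.76% higher.

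The libraries of the groups did not overlap for 17 of the 38 members, each lower with raffinose: 12 cytosolic, 4 mitochondrial and 1 scaffold gene. Over all tested genes 10.9% were lower without overlap and 10.6% higher. Among the 11962 tested genes with a mean of at least 1 FPKM in a group, which every member reached, 13.9% were lower without overlap and 11.1% higher. In that set 9.45% were lower at an unadjusted p under 0.05 by edgeR, and 3.15% were called lower by DESeq2.

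**Figure D1:**
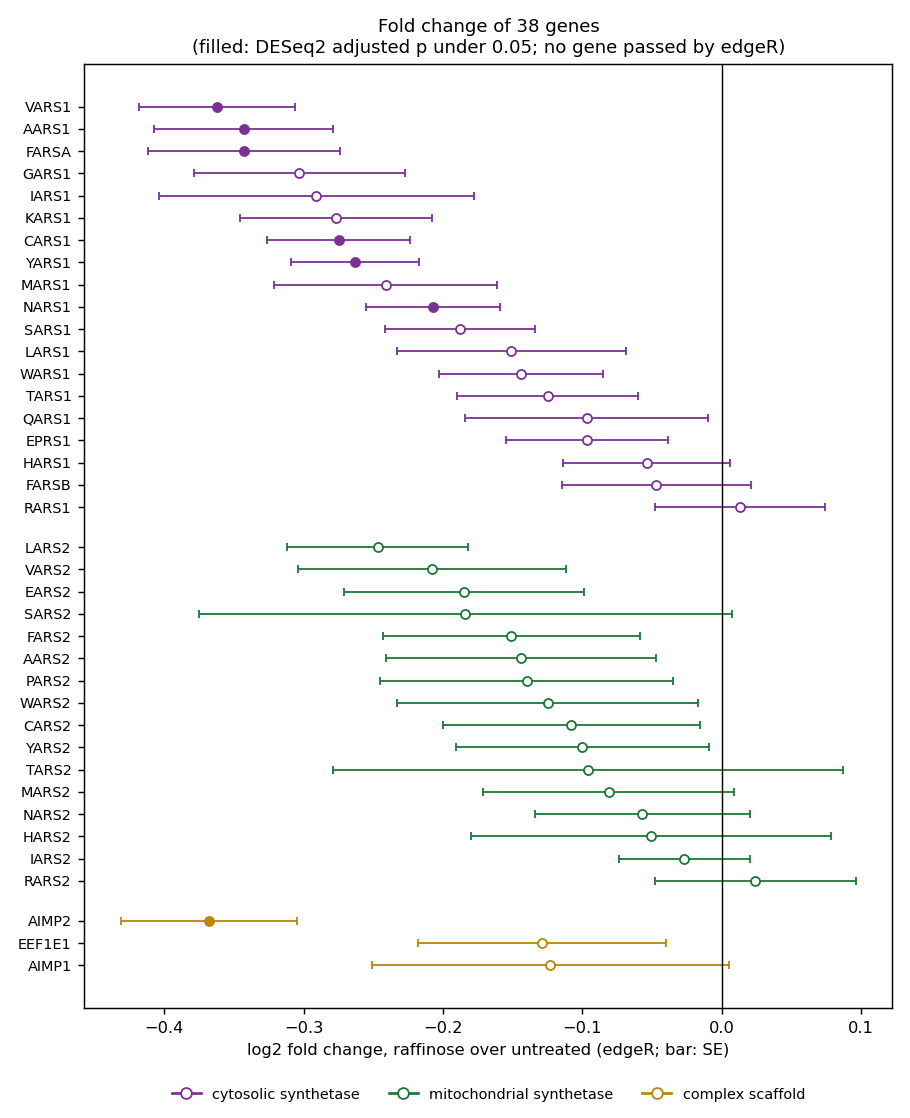
Log2 fold change of each of the 38 genes, raffinose over untreated, with the SE of the edgeR fit (3 libraries per group). Points left of the line at 0 are lower with raffinose, as 36 of 38 genes are, and filled points mark the 7 genes that DESeq2 called.

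VARS1 encodes valyl-tRNA synthetase, which works in a complex with elongation factor 1. It had 142.5, 152 and 139.6 CPM in the 3 raffinose libraries, against 184.5, 183 and 190.4 CPM in the 3 untreated libraries. Each raffinose library was below each untreated one, and the spread within a group was small beside the gap. The log2 fold change was -0.36 (SE 0.06, edgeR adjusted p = 0.106, DESeq2 adjusted p = 0.000167), a fold of 0.778. In the deposited table it is ENSG00000204394, chromosome 6, 31777518 to 31795752, minus strand.

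YARS1, the tyrosyl enzyme, had 239.6, 230.5 and 235 CPM in the 3 raffinose libraries, against 281, 283 and 282 CPM in the 3 untreated libraries. The untreated libraries were nearly equal and lay above the treated ones. Its log2 fold change was -0.26 (SE 0.05, edgeR adjusted p = 0.123, DESeq2 adjusted p = 0.00127; ENSG00000134684, chromosome 1, 32775237 to 32818153, minus strand). AARS1, the alanyl enzyme, had 201.5, 228 and 223 CPM in the 3 raffinose libraries, against 267, 282 and 278.5 CPM in the 3 untreated libraries. Raffinose replicate 1 was the lowest of the 6 and the groups did not overlap. Its log2 fold change was -0.34 (SE 0.06, edgeR adjusted p = 0.145, DESeq2 adjusted p = 0.00411; ENSG00000090861, chromosome 16, 70251983 to 70289707, minus strand).

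CARS1, the cysteinyl enzyme, had 273, 278 and 264 CPM in the 3 raffinose libraries, against 339, 317 and 330.2 CPM in the 3 untreated libraries. The groups were apart by more than the range within either. The log2 fold change was -0.28 (SE 0.05, edgeR adjusted p = 0.145, DESeq2 adjusted p = 0.00556; ENSG00000110619, chromosome 11, 3000922 to 3057613, minus strand). The phenylalanyl enzyme is a tetramer of the products of FARSA and FARSB. FARSA had 81.0, 73.9 and 73.9 CPM in the 3 raffinose libraries, against 96.7, 91.7 and 102 CPM in the 3 untreated libraries, with no overlap. Its log2 fold change was -0.34 (SE 0.07, edgeR adjusted p = 0.151, DESeq2 adjusted p = 0.00843; ENSG00000179115, chromosome 19, 12922479 to 12934037, minus strand). Its partner FARSB had 117, 121 and 109 CPM in the 3 raffinose libraries, against 125.5, 113.5 and 120.1 CPM in the 3 untreated libraries, and there the groups overlapped. The log2 fold change of FARSB was -0.05 (SE 0.07, edgeR adjusted p = 0.813). Whether the 2 subunit genes differed in response was not tested.

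NARS1, the asparaginyl enzyme, had 285.5, 272 and 269 CPM in the 3 raffinose libraries, against 315, 319 and 321 CPM in the 3 untreated libraries. All treated libraries were below all untreated ones, and the log2 fold change was -0.21 (SE 0.05, edgeR adjusted p = 0.186, DESeq2 adjusted p = 0.0410; ENSG00000134440, chromosome 18, 57600656 to 57621836, minus strand). With each library left out in turn, DESeq2 still called VARS1, YARS1, AARS1, CARS1 and FARSA in 6 of 6 fits. NARS1 was called in 5 of 6 and lost without untreated replicate 3.

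The other cytosolic genes without overlap were KARS1, GARS1, SARS1, MARS1, IARS1 and WARS1, the lysyl, glycyl, seryl, methionyl, isoleucyl and tryptophanyl enzymes. Their log2 fold changes ran between -0.30 for GARS1 and -0.14 for WARS1, with edgeR adjusted p of 0.199 to 0.368. IARS1 had 262, 347 and 347 CPM in the 3 raffinose libraries, against 385, 388 and 397 CPM in the 3 untreated libraries, so that raffinose replicate 1 lay well below the other 2 treated libraries. The 7 cytosolic genes whose groups overlapped had log2 fold changes of -0.15 to 0.01 and edgeR adjusted p of 0.467 to 0.957. They were EPRS1, FARSB, HARS1, LARS1, QARS1, RARS1 and TARS1. TARS1, the threonyl enzyme, had the highest mean FPKM of the 19, with 395, 407 and 432 CPM in the 3 raffinose libraries, against 480.5, 432 and 434 CPM in the 3 untreated libraries. Untreated replicate 1 was high, and the other 2 untreated libraries were close to raffinose replicate 3. LARS1, the leucyl enzyme and the lowest in mean FPKM, had 177, 167 and 159 CPM in the 3 raffinose libraries, against 170.3, 184.5 and 204 CPM in the 3 untreated libraries, with raffinose replicate 1 above untreated replicate 1.

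**Figure D2:**
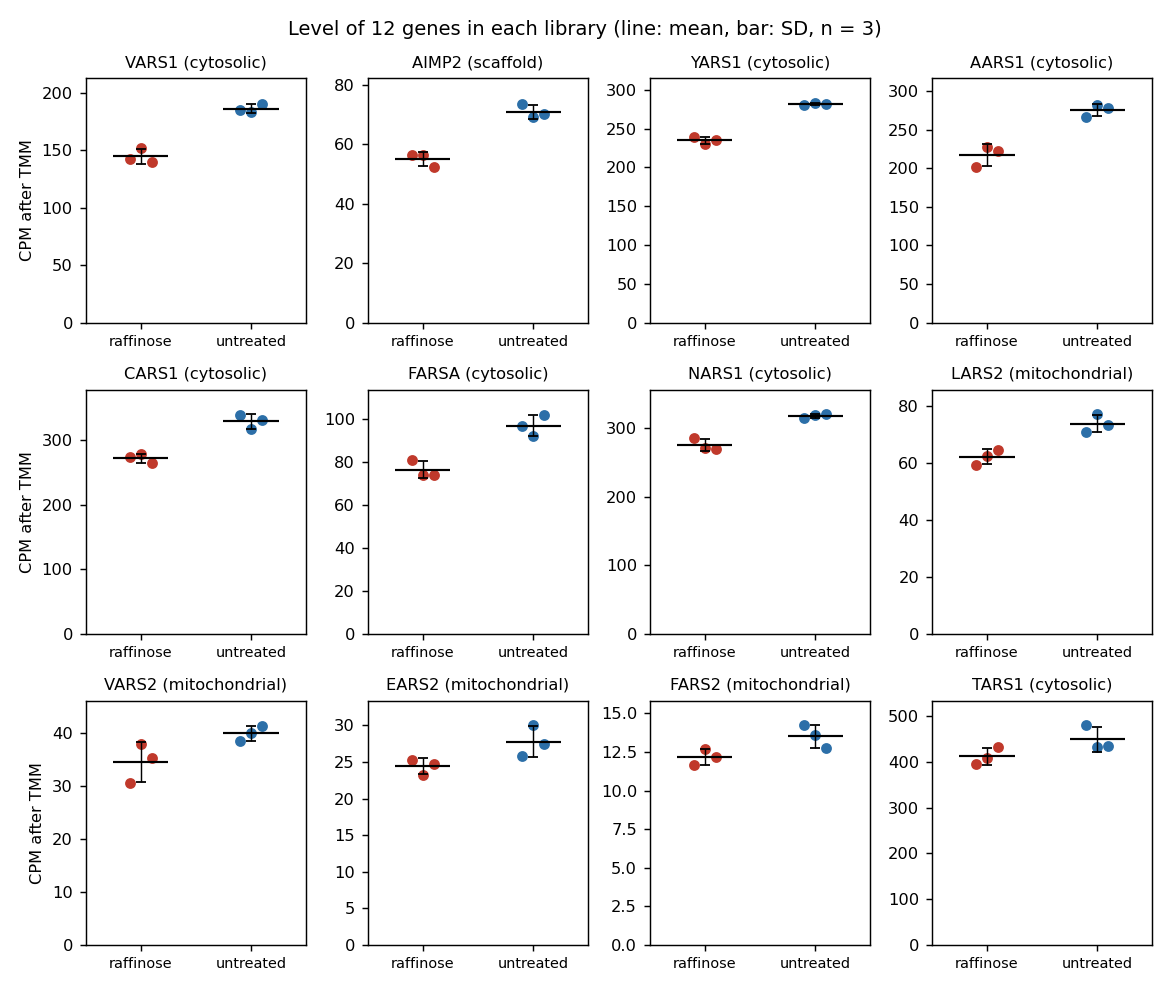
CPM after TMM scaling in each library for the 7 genes called by DESeq2, the 4 mitochondrial genes with the smallest edgeR p, and TARS1 (raffinose left, untreated right; line and bar are mean and SD, n = 3). The groups do not overlap in 11 of the 12 panels, all chosen by a call or a small p, while those of TARS1 meet. They did not overlap in 17 of the 38 members, and 10.9% of all tested genes were lower without overlap.

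By place in the cell's machinery, the 7 cytosolic synthetases of the multisynthetase complex (EPRS1, IARS1, KARS1, LARS1, MARS1, QARS1 and RARS1) had a median log2 fold change of -0.15, with 3 lower without overlap and 0 called by DESeq2. The 12 outside it had a median of -0.24, with 9 lower without overlap and 6 called by DESeq2. The 9 cytosolic class I enzymes had a median of -0.24 and the 9 class II enzymes one of -0.21, EPRS1 being of both classes. These are descriptions of the lists, with no test between them. Over all tested genes 10.9% were lower without overlap, and 13.9% of those with a mean of at least 1 FPKM in a group. DESeq2 called 2.83% lower of all genes it gave an adjusted p, and 3.15% of those at 1 FPKM.

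Of the scaffold genes, AIMP2 had 56.4, 56.4 and 52.3 CPM in the 3 raffinose libraries, against 73.7, 69.1 and 70.3 CPM in the 3 untreated libraries. The groups were well apart. The log2 fold change was -0.37 (SE 0.06, edgeR adjusted p = 0.119, DESeq2 adjusted p = 0.000871; ENSG00000106305, chromosome 7, 6009255 to 6023834, plus strand), the lowest of the 38, and DESeq2 called it in 6 of 6 fits that left out a library. AIMP1, which encodes the p43 protein, had 63.0, 48.1 and 50.5 CPM in the 3 raffinose libraries, against 59.3, 52.3 and 64.4 CPM in the 3 untreated libraries. Raffinose replicate 1 stood with the untreated libraries, and the log2 fold change was -0.12 (SE 0.13, edgeR adjusted p = 0.737). Without raffinose replicate 1 it was -0.25, and without raffinose replicate 2 it was -0.048. EEF1E1, which encodes the p18 protein, had 45.7, 47.9 and 44.8 CPM in the 3 raffinose libraries, against 56.2, 48.6 and 46.4 CPM in the 3 untreated libraries. The groups overlapped, and its log2 fold change was -0.13 (SE 0.09, edgeR adjusted p = 0.592), or -0.044 without untreated replicate 1.

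The mitochondrial synthetases had a median log2 fold change of -0.12, with 15 of 16 negative and 0 called by edgeR or DESeq2. LARS2, the mitochondrial leucyl enzyme, had the smallest p of them. It had 59.4, 62.7 and 64.8 CPM in the 3 raffinose libraries, against 71.2, 77.2 and 73.4 CPM in the 3 untreated libraries, without overlap (log2 fold change -0.25, SE 0.07, edgeR adjusted p = 0.211). VARS2, the valyl enzyme, had 30.6, 37.96 and 35.4 CPM in the 3 raffinose libraries, against 38.5, 40.1 and 41.4 CPM in the 3 untreated libraries. The treated libraries were lower, the highest of them just below the lowest untreated one (log2 fold change -0.21, SE 0.10, edgeR adjusted p = 0.419).

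EARS2, which charges mitochondrial tRNA for glutamate, had 25.3, 23.3 and 24.7 CPM in the 3 raffinose libraries, against 25.9, 30.0 and 27.5 CPM in the 3 untreated libraries. Its groups were close but apart, with a log2 fold change of -0.18 (SE 0.09, edgeR adjusted p = 0.421). FARS2, the mitochondrial phenylalanyl enzyme and the lowest of the 16 in mean FPKM, had 11.7, 12.7 and 12.2 CPM in the 3 raffinose libraries, against 14.2, 13.6 and 12.8 CPM in the 3 untreated libraries. Here too the gap between groups was narrow (log2 fold change -0.15, SE 0.09, edgeR adjusted p = 0.542). IARS2, the isoleucyl enzyme and the highest in FPKM, had 218, 221 and 218 CPM in the 3 raffinose libraries, against 221, 228 and 219.9 CPM in the 3 untreated libraries. The groups overlapped, and its log2 fold change was -0.03 (SE 0.05, edgeR adjusted p = 0.851) and 0.01 by limma on log2(FPKM + 1).

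For the remaining 11 mitochondrial genes the groups overlapped. The largest spread was that of SARS2, the seryl enzyme, with 59.6, 89.9 and 57.4 CPM in the 3 raffinose libraries, against 75.6, 70.2 and 89.2 CPM in the 3 untreated libraries. HARS2, the histidyl enzyme, had 49.6, 63.0 and 47.0 CPM in the 3 raffinose libraries, against 51.2, 53.8 and 60.3 CPM in the 3 untreated libraries. TARS2, the threonyl enzyme, had 24.7, 37.3 and 25.5 CPM in the 3 raffinose libraries, against 28.5, 35.6 and 29.5 CPM in the 3 untreated libraries. In each of these 3 genes raffinose replicate 2 was the highest of the 6 libraries and raffinose replicates 1 and 3 were the lowest 2. Their SEs were 0.19, 0.13 and 0.18 on the log2 scale, the largest among the 38 members.

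Taken per library, the median over the 19 cytosolic genes of log2 CPM minus the mean of 6 libraries was -0.10, -0.08 and -0.12 in raffinose replicates 1, 2 and 3, against 0.13, 0.07 and 0.12 in untreated replicates 1, 2 and 3. For the 16 mitochondrial genes it was -0.112, -0.002 and -0.076 in the raffinose libraries, against 0.014, 0.096 and 0.047 in the untreated libraries. Both sets were thus lower in every treated library, and raffinose replicate 2 was the closest to the untreated libraries. The summed FPKM of the cytosolic genes was 610.5, 623 and 630.3 in the raffinose libraries, against 691, 678 and 705 in the untreated libraries, with no overlap. The mitochondrial sum was 160.5, 177 and 161 FPKM in the raffinose libraries, against 169, 174 and 173 FPKM in the untreated libraries, with overlap. The ratio of the cytosolic to the mitochondrial sum was 3.80, 3.52 and 3.91 in the raffinose libraries and 4.09, 3.90 and 4.07 in the untreated libraries. These ranges met, as raffinose replicate 3 lay just above untreated replicate 2, and no test was made, since the members were chosen with earlier results known.

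**Figure D3:**
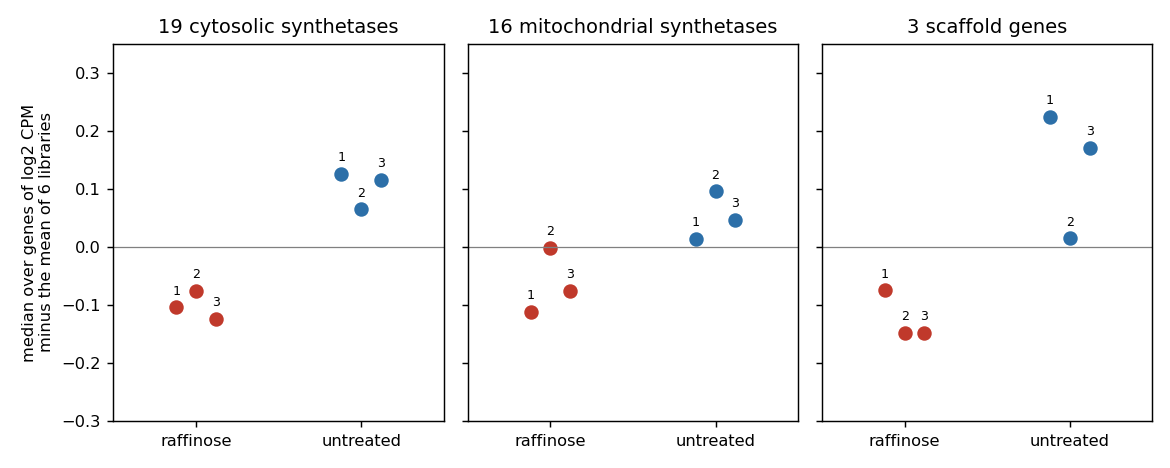
Median over genes of log2 CPM minus the gene's mean over 6 libraries, for the cytosolic, mitochondrial and scaffold genes (digits are replicate numbers; raffinose left, untreated right). All 3 raffinose libraries lie below all 3 untreated ones in each panel, with raffinose replicate 2 at -0.002 near the lowest untreated library at 0.014 in the mitochondrial panel.

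The promoters of the members were searched for sites of factors known to act on synthetase genes. RefSeq windows on GRCh38.p14, from 250 bases before to 50 bases from each annotated start, were found for 33 of 38 members. LARS1, VARS1, YARS1, AARS2 and VARS2 were not matched. The core TGATGNAA of the C/EBP-ATF response element, which ATF4 binds with a partner, was searched on both strands. It was in 7 of 16 cytosolic genes with a window (43.8%), 1 of 14 mitochondrial genes (7.14%) and 0 of 3 scaffold genes, beside 4.46% of 27305 RefSeq genes. Its form TTGCATCA, which is TGATGCAA read on the other strand and so overlaps the first search, was in 6 of 16 cytosolic genes (37.5%) and 0 of 14 mitochondrial genes, beside 1.08% of genes. The E-box CACGTG, which MYC with MAX can bind, was in IARS1, CARS2, EARS2, MARS2 and AIMP2, beside 8.77% of genes. The stretches around the cores of the cytosolic genes are printed to show where each core lies, the search having fixed all its letters but one; capitals mark the core, and each is written 5′ to 3′ on the gene's strand.
AARS1 (chr16:70289660-70289719, minus strand): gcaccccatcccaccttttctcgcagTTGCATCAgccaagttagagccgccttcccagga
CARS1 (chr11:3057407-3057436, minus strand): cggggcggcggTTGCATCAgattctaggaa
GARS1 (chr7:30594819-30594877, plus strand): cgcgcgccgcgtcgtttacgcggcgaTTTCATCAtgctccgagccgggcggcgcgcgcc
IARS1 (chr9:92293698-92293736, minus strand): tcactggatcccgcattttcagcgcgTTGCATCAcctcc
MARS1 (chr12:57488053-57488082, plus strand): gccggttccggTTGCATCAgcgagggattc
NARS1 (chr18:57621804-57621833, minus strand): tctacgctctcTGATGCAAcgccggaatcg
TARS1 (chr5:33440956-33440985, plus strand): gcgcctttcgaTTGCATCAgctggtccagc

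In 6 of these the core reads TGATGCAA on one strand, and in GARS1 it reads TGATGAAA. It begins 187 bases before the start in AARS1, 33 before it in GARS1 and 13 before it in IARS1. In CARS1 and MARS1 it spans the start, and in NARS1 and TARS1 it begins at base 15 and base 3 from the start. CARS1, GARS1 and TARS1 each have another annotated start, whose window held no core. The 7 genes with the core had log2 fold changes of -0.34 to -0.13 (median -0.28), and 6 were lower without overlap, TARS1 being the exception. The 9 cytosolic genes with a window but no core had log2 fold changes of -0.34 to 0.01 (median -0.10), and 4 were lower without overlap. These 4 were FARSA, KARS1, SARS1 and WARS1. LARS1, VARS1 and YARS1 had no window and are in neither count. Whether the core bears on these levels was not tested. Both counts without overlap stand beside 10.9% of all tested genes, and 13.9% of those with a mean of at least 1 FPKM in a group. AIMP2, the lowest of all, held an E-box and no core. The other genes with an E-box had log2 fold changes of -0.291 (IARS1) and -0.185 to -0.081 (CARS2, EARS2 and MARS2). Whether the E-box bears on these levels was not tested. The E-box of AIMP2 is shown here in capitals.
AIMP2 (chr7:6009464-6009521, plus strand): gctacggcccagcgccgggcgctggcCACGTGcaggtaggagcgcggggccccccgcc
A match of letters is not evidence that a factor bound there, and these windows do not cover introns or distant elements.

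To compare genes with one another, levels must be set per length. The deposited FPKM divides by a fixed length for each gene: the length implied by count and FPKM varied between libraries by a median factor of 1.009 over 12497 genes. It followed the summed exon length of all transcripts in GENCODE 29 (Spearman's rho 0.965 across genes, which are not independent replicates). This implied length was 7.9 times that of the principal transcript in GARS1 and 6.95 times in HARS1, but 1.18 times in TARS1. In MARS2 and PARS2 the summed exons are as long as the principal transcript, and it was still 1.2 times. These ratios are therefore not of length alone. In GARS1 it was 20.8 kb, against 4.15 kb of summed exons in GENCODE 29, where the gene has another start. Levels were therefore also computed as CPM per kb of the principal GENCODE 29 transcript. The deposited counts may hold reads from outside that transcript, so for genes such as GARS1 and HARS1 the value per kb may be too high and the FPKM too low.

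By that measure the highest cytosolic gene was GARS1 at 170.0 ± 6.08 CPM per kb in raffinose-treated cells and 209 ± 18.9 in untreated cells (SD, n = 3 each). It ranked 12 of 19 by FPKM. MARS1 (150.0 as the mean of both groups), SARS1 (146) and CARS1 (112) followed, and the spread of MARS1 over libraries covered SARS1. The lowest cytosolic gene was WARS1 at 29.5 CPM per kb. The mitochondrial genes ran between 4.61 CPM per kb for MARS2 and 62.0 for IARS2, with YARS2 (36.1) and SARS2 (35.8) next, and these last did not differ beyond their spread. The median was 76.2 CPM per kb over the cytosolic and 12.7 over the mitochondrial genes.

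Set against its mitochondrial counterpart, the cytosolic gene had more CPM per kb in 16 of 16 pairs for the same amino acid (EPRS1 stands in both the glutamate and the proline pair, and FARSA for phenylalanine), by 1.23 times for IARS1 over IARS2 and up to 32.5 times for MARS1 over MARS2. By mean FPKM it was higher in 13 of 16 pairs: HARS1, IARS1 and YARS1 were then below HARS2, IARS2 and YARS2. Within a pair, the length does not bear on a comparison of the groups. The ratio of cytosolic to mitochondrial FPKM was lower in every raffinose library for the cysteine, isoleucine, methionine and asparagine pairs, higher for none, and overlapped in 12. How often such ratios separate over all genes was not computed, so nothing is read from these counts. For isoleucine it was 0.673, 0.877 and 0.892 in the raffinose libraries, against 0.975, 0.950 and 1.01 in the untreated libraries. The value of 0.673 lay well below the others, and whether the ratio differed between the groups was not tested. For asparagine it was 6.0, 6.05 and 5.98 in the raffinose libraries, against 6.52, 6.31 and 7.23 in the untreated libraries.

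**Figure D4:**
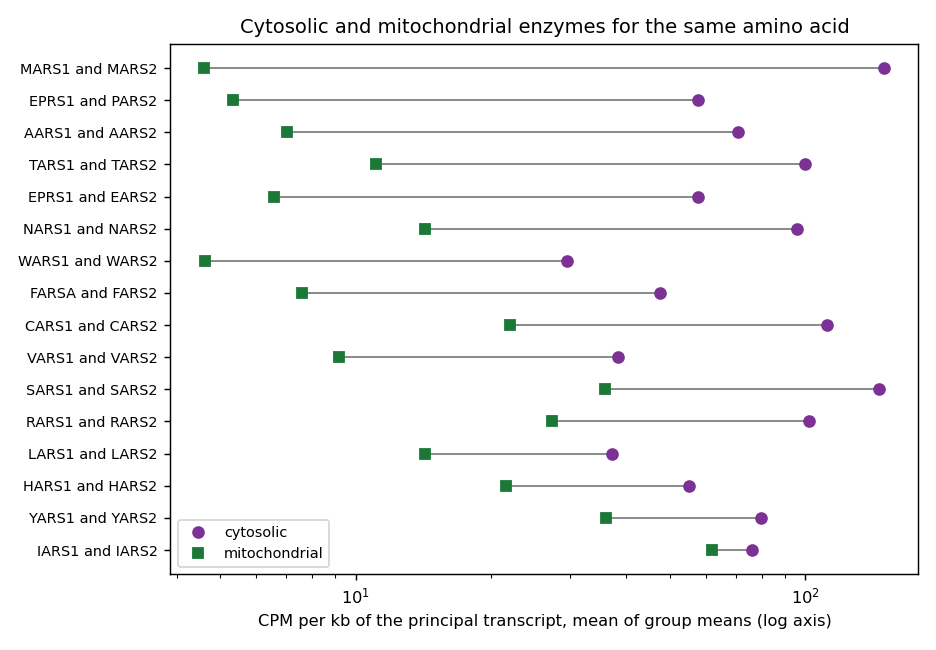
CPM per kb of the principal transcript on a log axis for the cytosolic (circles) and mitochondrial (squares) enzyme of each amino acid, as the mean of the 2 group means. The cytosolic gene is to the right in all 16 pairs, with the widest gap for MARS1 and MARS2 (150.0 and 4.61 CPM per kb) and the narrowest for IARS1 and IARS2 (76.2 and 62.0).

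Some members overlap a neighbour. Overlaps are of whole gene spans, introns included, and the part of them in exons was not computed. Of the 38, 12 overlap a gene with a mean of at least 1 FPKM in the table, 11 of them one on the opposite strand. The library protocol keeps the strand, but whether the counting used it is not given in the sources used here, so reads in the shared part cannot be assigned. The widest overlap was 18161 bases between YARS2 and DNM1L, which averaged 29.8 FPKM, so the level of YARS2 is uncertain. AIMP2 shares 1588 bases with EIF2AK1, an eIF2 kinase gene. EIF2AK1 had 323.5, 321 and 308 CPM in the 3 raffinose libraries, against 313, 289.9 and 298 CPM in the 3 untreated libraries. Its groups overlapped, with a log2 fold change of 0.08 (SE 0.05, edgeR adjusted p = 0.571), and the part of shared reads in the level of AIMP2 was not tested. MARS1 shares 982 bases with DDIT3, which encodes the stress factor CHOP and had 22.0, 25.8 and 45.0 FPKM in the raffinose libraries, against 32.9, 17.9 and 17.6 FPKM in the untreated libraries. HARS1 and HARS2 lie head to head and share 108 bases. HARS2 also shares 612 bases on the same strand with ZMAT2, which averaged 67.0 FPKM. SARS2 shares 216 bases with MRPS12, which lies on the opposite strand and averaged 80.8 FPKM. VARS2 shares 12255 bases on the same strand with AL669830, which averaged 1.19 FPKM. AL669830 had 1.52, 0.471 and 0.888 FPKM in the raffinose libraries, against 0.784, 2.01 and 1.45 FPKM in the untreated libraries. The part of shared reads in the levels of HARS2, SARS2 and VARS2 was not tested.

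Around the synthetases, the gene of ATF4 itself had 70.6, 69.6 and 67.8 CPM in the 3 raffinose libraries, against 78.0, 74.7 and 85.9 CPM in the 3 untreated libraries. It was lower in each treated library, with a log2 fold change of -0.20 (SE 0.07, edgeR adjusted p = 0.311). EIF2AK4, the gene of the kinase GCN2, had 104 ± 3.05 CPM in raffinose-treated cells and 95.7 ± 8.67 CPM in untreated cells (SD, n = 3 each), with a log2 fold change of 0.12 (edgeR adjusted p = 0.561). Among 34 genes of the ATF4 and amino acid response, ATF4 included and synthetases left out, 26 were negative with a median log2 fold change of -0.19. Of the 34, 17 were lower without overlap and 5 higher, beside 10.9% and 10.6% of all tested genes. By edgeR 1 passed: the glycine transporter SLC6A9, which fell to 12.9 ± 0.624 CPM in raffinose-treated cells, against 24.7 ± 0.475 CPM in untreated cells (SD, n = 3 each; edgeR adjusted p = 0.0189). DESeq2 called 6 lower, namely SLC6A9, CBS, STC2, SLC7A5, PSAT1 and MTHFD2, and 3 higher, namely ATF3, DDIT4 and SLC38A2. Of all genes it gave an adjusted p, it called 2.83% lower and 1.76% higher. ATF3, a stress-induced transcription factor gene, had 21.5, 34.6 and 25.7 CPM in the 3 raffinose libraries, against 15.4, 15.6 and 14.3 CPM in the 3 untreated libraries. Its groups did not overlap (log2 fold change 0.85, SE 0.18, edgeR adjusted p = 0.159, DESeq2 adjusted p = 0.00120). DDIT4, which encodes an inhibitor of mTORC1 signalling, and SLC38A2, which encodes an amino acid transporter, had log2 fold changes of 0.37 and 0.26, with edgeR adjusted p of 0.151 and 0.187. This list was drawn up with earlier results of these data known.

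Of 41 genes of tRNA maturation and export, 28 were negative (median -0.06) and 0 passed by edgeR, with 9 lower and 1 higher at an unadjusted p under 0.05. DESeq2 called 1 lower, the dihydrouridine synthase gene DUS3L (14.8 ± 0.569 CPM in raffinose-treated cells and 19.9 ± 1.42 CPM in untreated cells, SD, n = 3 each). Beside these, 7.08% of all tested genes were lower and 6.21% higher at that unadjusted p by edgeR. Of all genes it gave an adjusted p, DESeq2 called 2.83% lower and 1.76% higher. XPOT, the tRNA exporter, had a log2 fold change of -0.21 (SE 0.06, edgeR adjusted p = 0.231). Of 15 accessory genes of tRNA charging, 8 were positive and 7 negative, 0 passed by edgeR with 3 higher and 1 lower at an unadjusted p under 0.05, and DESeq2 called 1 higher. That gene was TARS3, a paralogue of TARS1 that is not among the 19 cytosolic synthetase genes counted above. It had 23.5, 24.1 and 25.1 CPM in the 3 raffinose libraries, against 20.1, 19.9 and 20.0 CPM in the 3 untreated libraries. Its groups did not overlap, in the direction opposite to most of those 19 genes (log2 fold change 0.28, SE 0.07, edgeR adjusted p = 0.204, DESeq2 adjusted p = 0.0377).

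The 16 genes of amino acid sensing and eIF2 control had 8 positive and 8 negative members and a median of 0.01. By edgeR 0 passed, with 1 higher and 2 lower at an unadjusted p under 0.05, and DESeq2 called PPP1R15A, which encodes a subunit of the eIF2 phosphatase, higher (log2 fold change 0.29, SE 0.06, DESeq2 adjusted p = 0.0122). The 7 genes of cytosolic elongation factors had 4 negative members and a median of -0.02, and the 11 mitochondrial translation factors 5 negative members and a median of 0.00. By edgeR 0 of either list passed, with 1 lower in each at an unadjusted p under 0.05, and DESeq2 called 0. EEF1A1, which carries charged tRNA to the ribosome, had 12120 ± 391 CPM in raffinose-treated cells and 12120 ± 336 CPM in untreated cells (SD, n = 3 each). In the MYC network, with 10 of 11 genes tested and a median of -0.01, MYC had 11.4, 65.7 and 61.3 CPM in the 3 raffinose libraries, against 13.1, 7.99 and 12.3 CPM in the 3 untreated libraries. Raffinose replicate 1 stood with the untreated libraries and the other 2 treated libraries were several times higher. By edgeR 0 of the list passed, with 2 higher and 2 lower at an unadjusted p under 0.05, and DESeq2 called 1 higher, the MAX dimerization gene MXD1 (log2 fold change 0.74, DESeq2 adjusted p = 0.0142). The counts of each list in this paragraph stand beside 7.08% of all tested genes lower and 6.21% higher at that unadjusted p by edgeR. They also stand beside 2.83% called lower and 1.76% higher by DESeq2, of all genes it gave an adjusted p.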

How the data were processed

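Poly(A) RNA of 6 PANC-1 libraries was sequenced, per the labels' protocols. For each gene and library the authors deposited FPKM and, in a second column, estimated counts, per the file headers. Tools listed in the submitters' processing notes are StringTie 1.3.4d, HISAT2 2.0.4, cutadapt 1.9, DESeq2 and edgeR, with no role stated. A genome build is not given in the sources used here. Among the table's gene identifiers, 58394 were found in GENCODE 29, 84.6% of them with the same start, and coordinates are the table's own. The deposited estimated counts were whole and were tested as they stand with edgeR 4.0.16 in R 4.3.3 (filterByExpr with a minimum count of 10, TMM, glmQLFit, glmQLFTest, Benjamini-Hochberg over 18863 genes, threshold 0.05). CPM are library-scaled counts after TMM. SEs are the log2 fold change over the root of the F statistic. Total counts were 59723420 to 66063664 per library, and the common biological coefficient of variation was 27.1%.

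The members and lists were chosen with earlier results of these data known. Values of every library are given for members called by edgeR or DESeq2, the 6 cytosolic and 4 mitochondrial genes with the smallest edgeR p, the scaffold genes, and the highest and lowest in FPKM of each synthetase group; IARS1, FARSB, SARS2, HARS2 and TARS2 were added after their values were seen. In each other list ATF4, MYC, EIF2AK4, genes called by edgeR and up to 3 of the smallest edgeR p are named, and EEF1A1, KRT7, EIF2AK1 and the ATF4 list's other genes called by DESeq2 were added after their values were seen. Of 171 list entries, markers included, 171 matched the table. Alternatives were DESeq2 1.42.0, its size factors in edgeR, no filter, a filter at a mean FPKM of 1, limma 3.58.1 on log2(FPKM + 1) and log2(FPKM + 0.1), counts divided by 4, the replicate number as a block, and each library left out. Robust dispersion and DESeq2 with each library left out were added after seeing the data. The fits were tested on simulated counts. Promoter sequences are from RefSeq (GRCh38.p14).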

Additional observations from a re-analysis of the deposited data

How the results depend on the processing

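By edgeR and limma 0 members were called under any alternative run, those with each library left out included, and at an unadjusted p under 0.05 the cytosolic genes numbered 9 to 12. DESeq2 called 6 cytosolic and 1 scaffold gene lower, and with each library left out 6 to 8 cytosolic, 0 to 1 mitochondrial and 1 scaffold gene. Over all genes 23 were called, against 663 by DESeq2 (627, 979 and 671 without raffinose replicates 1, 2 and 3, and 936, 870 and 708 without untreated replicates 1, 2 and 3), 42 with the filter at FPKM 1, 46 and 41 by limma on log2(FPKM + 1) and log2(FPKM + 0.1), 35 with counts divided by 4, and 4 to 23 by edgeR with each library left out (4 without untreated replicate 3 and 11 without raffinose replicate 2). The cause of these differences was not tested. The replicate block left 0 calls over all genes, with 1932 at an unadjusted p under 0.05. Deviations of libraries with the same number had correlations of -0.009, -0.033 and 0.006, so no pairing was seen; under the block 0 members were called and 10 cytosolic genes were at an unadjusted p under 0.05.

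The median log2 fold change was -0.168 and -0.171 by limma at pseudocounts of 1 and 0.1 for the cytosolic genes, against -0.207, and -0.065 at a pseudocount of 1 for the mitochondrial genes, against -0.117. Leaving out single libraries gave the scaffold genes medians between -0.25 (raffinose replicate 1 omitted) and -0.108. The median of all genes was 0.006, against 0.027 at most in any setting. Of 532 values of single members under the alternatives, 515 kept their direction and their side of the threshold, 7 became calls (all by DESeq2) and 10 turned in sign. IARS2 turned to 0.01 by limma at both pseudocounts. With libraries left out, RARS1 ranged from -0.022 to 0.048, HARS2 from -0.191 to 0.03, RARS2 from -0.027 to 0.067 and TARS2 from -0.313 to 0.011. The ratio of cytosolic to mitochondrial sums, raffinose over untreated, was 0.931 in FPKM and 0.927 in CPM.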
